A study of Mus musculus with 20 samples.

Results

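Chromatin-associated RNA was compared between wild-type (WT) cardiomyocyte cultures (CM WT) and the WT mouse embryonic stem cells from which such cultures are made (ESC WT). The genes described are the protein-coding genes with at least 1 RPKM (reads scaled to gene length and to library size) in CM WT or in ESC WT, which gave 5091 of the 16170 protein-coding genes listed in any ChrRNA-seq file of the study. Per the labels, both groups are of the C57BL/6 strain and WT for Mettl3; the number of clones or cultures behind a library was not given. The CM WT cells came from ESCs aggregated into embryoid bodies in medium with serum and ascorbic acid and replated on gelatin, and the labels describe no selection or sorting of cardiomyocytes. The ESC WT cells are undifferentiated, and the study also holds CM KO and ESC KO, the same kinds of culture without Mettl3, the enzyme that writes most m6A on RNA in the nucleus. ChrRNA-seq had 1 library in each group, so every difference below is between 2 libraries and has no replicate check. ATAC-seq, in which a transposase cuts accessible chromatin, had 3 libraries each in CM WT and ESC WT, and m6A sequencing of chromatin RNA (Chrm6A-seq) had 1.

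Chromatin-associated RNA is the RNA that stays with chromatin when the soluble parts of the cell are removed, and it is rich in transcripts still being made, introns included. A gene's level in it lies closer to its transcription than the level of its finished mRNA does. Pluripotent stem cells divide fast and are known for a high output of ribosomes, nucleotides and DNA replication proteins. Differentiating embryoid bodies form mesoderm, endoderm and blood cells beside heart muscle, and mesenchymal cells in them lay down collagen and other extracellular matrix.

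Depth, read from the steps between the lowest RPKM values, was about 29350000 reads in CM WT and 27900000 in ESC WT, and 19732 and 18428 genes of any kind were listed in CM WT and ESC WT. The markers of the labelled cell types went with the labels. The 8 cardiomyocyte markers summed to 7.83 RPKM in CM WT and 1.04 RPKM in ESC WT, and all 8 were higher in CM WT. Tnnt2 (0.742 RPKM in CM WT) and Nkx2-5 (0.0820 RPKM in CM WT) were not listed in ESC WT. The 8 ESC markers summed to 8.22 RPKM in CM WT and 65.7 RPKM in ESC WT, with Sox2 listed in neither. Markers of other cell types were also present in CM WT. The 6 fibroblast markers summed to 28.8 RPKM in CM WT and 0.184 RPKM in ESC WT, all 6 being higher in CM WT. The 6 visceral endoderm markers summed to 13.7 RPKM in CM WT and 0.0435 RPKM in ESC WT, Apoa4 being listed in neither. The 5 erythroid markers summed to 40.8 RPKM in CM WT and 0.118 RPKM in ESC WT, nearly all from the embryonic globins, since Alas2 stood at 0.113 RPKM in CM WT and Klf1 was not listed. The 4 smooth muscle markers summed to 4.16 RPKM in CM WT and 0.543 RPKM in ESC WT, and the 5 endothelial markers to 2.93 RPKM in CM WT and 0.836 RPKM in ESC WT. Of the endothelial markers, 4 were higher in CM WT, and only Kdr reached 1 RPKM there (1.34 RPKM). Pecam1 went the other way, with 0.292 RPKM in CM WT and 0.706 RPKM in ESC WT. The 5 neural markers summed to 1.79 RPKM in CM WT and 4.77 RPKM in ESC WT, a difference carried by Stmn2, while Nes and Dcx were higher in CM WT and Tubb3 was listed in neither. In a bulk library, fewer cells of a type and less RNA per cell cannot be told apart.

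**Figure D1:**
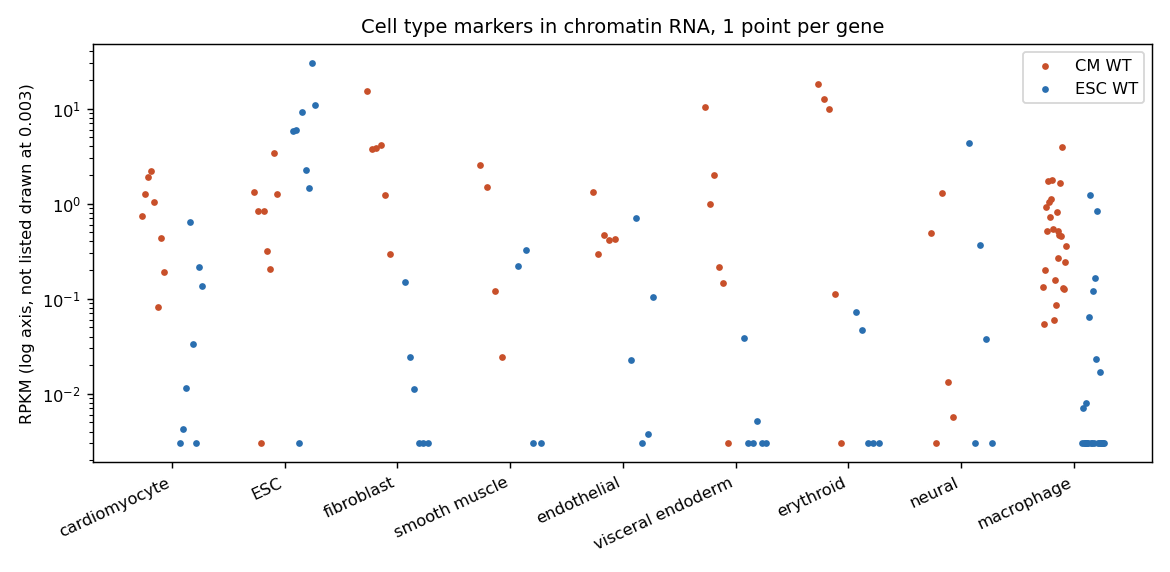
Chromatin RNA level (RPKM, log axis) of each marker gene, grouped by cell type on the horizontal axis, in CM WT (left of each pair) and ESC WT (right), 1 library each. Fibroblast, visceral endoderm and erythroid markers reach 15.5, 10.3 and 18.2 RPKM in CM WT, above the highest cardiomyocyte marker at 2.18 RPKM, while ESC markers are lower in CM WT.

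For each gene the log2 ratio was log2((CM WT + 1)/(ESC WT + 1)), which understates the change of low genes. Of the 5091 genes, 181 were at least 2-fold higher in CM WT on this scale (3.56%) and 232 at least 2-fold lower (4.56%). The median log2 ratio was -0.25, with quartiles of -0.50 and 0.07, and 29.2% of genes were above 0. This shift belongs to the whole comparison, so gene families are read against it. When the libraries were scaled to bring the median ratio of genes with at least 1 RPKM in both to 1, the split turned round to 269 higher and 114 lower. That scaling moves abundant genes by up to 0.36 on the log2 scale, so signs of ratios between -0.36 and 0 depend on it, while the 26 family medians at least 0.25 from the all-gene median stayed on their side of it. The filter also shapes the counts. Of the 5091 genes, 2984 had at least 1 RPKM in both libraries, 734 in CM WT only and 1373 in ESC WT only, and a gene that passed in 1 library only had to be higher there. Of the 734 genes that passed through CM WT only, 162 were among the 181 higher genes. Of the 1373 that passed through ESC WT only, 110 were among the 232 lower genes. Counts of family members below are to be read against these numbers and against the 3.56% and 4.56% over all genes. Over genes with at least 1 RPKM in both libraries, the median log2 ratio was -0.23. At the 1 RPKM limit, Rap2c (1.00 RPKM in CM WT, 0.557 RPKM in ESC WT) was just inside and Vangl1 (0.999 RPKM in CM WT, 0.862 RPKM in ESC WT) just outside. At the fold limit, Efnb1 (log2 ratio 1.00) lay just inside the higher genes and Sirpa (0.998) just outside, and Sntb2 (-1.001) and Hap1 (-0.9996) likewise for the lower genes. The whole-span RPKM counts reads of a gene's introns, and 2228 of the 5091 genes (43.8%) overlap another gene, 64 of the higher and 107 of the lower ones. Such genes are marked below as overlapping, because reads of the gene and of its neighbour, such as a small nucleolar RNA in an intron, may have been counted together.

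**Figure D2:**
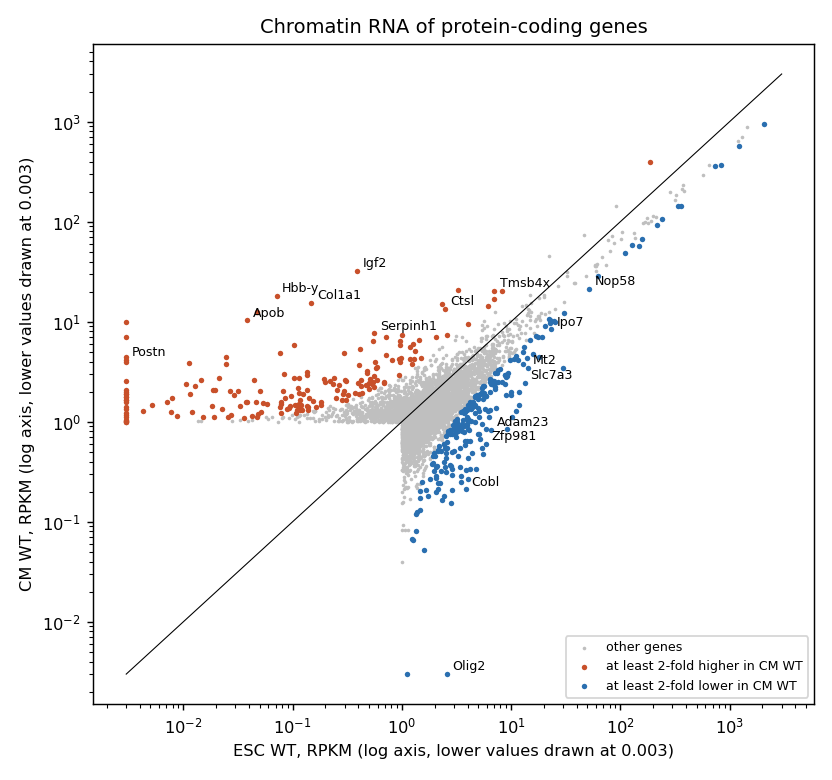
Chromatin RNA in CM WT (vertical) against ESC WT (horizontal), RPKM on log axes, 1 point per protein-coding gene in the filter; values under 0.003, including genes not listed, are drawn at 0.003. The 181 higher genes lie mostly at low ESC WT values, while the 232 lower genes extend from about 1 RPKM in ESC WT to the most abundant genes, and the bulk of abundant genes lies under the line of equality.

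Extracellular matrix genes were among the highest in CM WT. Col1a1, which encodes the main chain of collagen I (chromosome 11, 94936224 to 94953042, mm10), stood at 15.5 RPKM in CM WT and 0.149 RPKM in ESC WT, a ratio of 104 (95% counting interval 82.1 to 133). Col1a2, its partner chain, stood at 3.77 RPKM in CM WT and 0.0243 RPKM in ESC WT. Col3a1, the collagen III chain, stood at 3.89 RPKM in CM WT and 0.0112 RPKM in ESC WT. These 3 were the only members of 18 interstitial collagen genes to reach 1 RPKM in either library, and over all 18 without the filter the median log2 ratio was 0.30, against 0.0006 over all protein-coding genes listed in either library. Serpinh1, the collagen-specific chaperone of the endoplasmic reticulum, had 7.68 RPKM in CM WT and 0.560 RPKM in ESC WT. Among the other collagen-modifying enzymes, P4ha1, a prolyl hydroxylase, had 2.52 RPKM in CM WT and 0.689 RPKM in ESC WT, and Plod2, a lysyl hydroxylase (overlapping), had 2.23 RPKM in CM WT and 1.07 RPKM in ESC WT. P4hb, the shared small subunit of prolyl hydroxylase, was nearly level at 7.26 RPKM in CM WT and 6.07 RPKM in ESC WT. All 9 members of this family in the filter were above the all-gene median, but 4 had passed through CM WT only, which fixed their direction. Over the 5 with at least 1 RPKM in both libraries the median log2 ratio was 0.10, against -0.23 over all such genes.

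An ATAC-seq interval lay at the Col3a1 promoter in 3 of 3 CM WT libraries and 0 of 3 ESC WT libraries. Its sequence is shown because it is the matrix gene with that pattern. The 250 bases before the start (RefSeq, GRCm38.p6, chr1:45311288-45311537, plus strand) hold 1 copy of TATAAA, in capitals, from 117 to 112 bases before the start.
Col3a1: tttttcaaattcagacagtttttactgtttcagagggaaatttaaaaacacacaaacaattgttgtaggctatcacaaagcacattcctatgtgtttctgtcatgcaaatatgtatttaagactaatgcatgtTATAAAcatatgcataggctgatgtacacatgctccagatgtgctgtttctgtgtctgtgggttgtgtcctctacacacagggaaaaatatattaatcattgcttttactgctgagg

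Of 33 matrix glycoproteins and proteoglycans, 15 were in the filter, with 8 higher and none lower by 2-fold or more. Of the 15, 8 had passed through CM WT only, and of all 734 such genes 162 were at least 2-fold higher. Postn, which encodes the fibroblast protein periostin (overlapping), had 4.15 RPKM in CM WT and was not listed in ESC WT. Lum, the collagen-binding proteoglycan lumican, had 2.54 RPKM in CM WT and was not listed in ESC WT. Thbs1, an activator of latent TGF-beta, had 7.01 RPKM in CM WT and 0.722 RPKM in ESC WT. Gpc3, a cell-surface glypican (overlapping), had 3.55 RPKM in CM WT and 0.595 RPKM in ESC WT. Fn1, fibronectin, was already abundant in stem cells, at 9.12 RPKM in CM WT and 6.01 RPKM in ESC WT. Over the 6 members with at least 1 RPKM in both libraries the median log2 ratio was 0.56, against -0.23 over all such genes. Basement membrane genes were split. Sparc, a collagen-binding glycoprotein, had 5.62 RPKM in CM WT and 1.18 RPKM in ESC WT, and the overlapping pair Col4a1 and Col4a2 had 1.92 and 1.07 RPKM in CM WT, against 0.124 and 0.0597 RPKM in ESC WT. The laminin chain gene Lamb1 was higher (2.81 RPKM in CM WT, 1.24 RPKM in ESC WT), while the Lamc1 level (overlapping) was 2.16 RPKM in CM WT and 2.89 RPKM in ESC WT. Among proteases, Adamts1, a secreted metalloprotease, had 2.73 RPKM in CM WT and 0.104 RPKM in ESC WT, and Mmp14, a membrane-bound collagenase, had 2.70 RPKM in CM WT and 0.515 RPKM in ESC WT. Adam23, a member of the same broad family without protease activity (overlapping), went the other way, with 0.831 RPKM in CM WT and 6.56 RPKM in ESC WT. The fibroblast markers given above were higher in CM WT together with most of these genes, though not with Adam23 or Lamc1, and Col1a1, Col1a2, Col3a1, Postn and Dcn are on both kinds of list. Their part in the result was not tested.

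Of 29 cadherin and catenin genes, 9 were in the filter, 4 of them higher and none lower by 2-fold or more. These 4 had passed through CM WT only, which fixed their direction. Over the 5 with at least 1 RPKM in both libraries the median log2 ratio was 0.04, against -0.23 over all such genes. Cdh2, N-cadherin, had 2.06 RPKM in CM WT and 0.136 RPKM in ESC WT, whereas Cdh1, E-cadherin, had 1.89 RPKM in CM WT and 3.25 RPKM in ESC WT. Cdh11, a mesenchymal cadherin, had 1.26 RPKM in CM WT and 0.0120 RPKM in ESC WT. The 16 tight junction, desmosome and epithelial keratin genes in the filter were split, 8 with a log2 ratio above 0 and 8 below. Epcam, an epithelial adhesion molecule, had 1.22 RPKM in CM WT and 3.70 RPKM in ESC WT. The keratin pair of simple epithelia was higher, Krt18 at 3.95 RPKM in CM WT and 0.563 RPKM in ESC WT, and Krt8 at 1.90 RPKM in CM WT and 0.290 RPKM in ESC WT. Only 4 of 28 listed integrin genes were in the filter, with Itgb1 at 4.98 RPKM in CM WT and 3.34 RPKM in ESC WT and the laminin receptor Itga6 at 0.994 RPKM in CM WT and 1.71 RPKM in ESC WT.

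Of 53 transcription factors active in mesenchyme, 20 were in the filter, 7 higher and 1 lower by 2-fold or more. Of the 20, 14 had passed through CM WT only, and of all 734 such genes 162 were at least 2-fold higher. Hmga2, an architectural chromatin protein of embryonic mesenchyme (overlapping), had 3.14 RPKM in CM WT and 0.136 RPKM in ESC WT. Klf6, a zinc finger factor, had 6.05 RPKM in CM WT and 1.26 RPKM in ESC WT. Zeb2, a repressor of E-cadherin (overlapping), had 2.04 RPKM in CM WT and 0.0505 RPKM in ESC WT. Tead1, the DNA-binding partner of YAP, was level at 2.69 RPKM in CM WT and 2.68 RPKM in ESC WT. Klf9 (overlapping) was the lower one, with 1.87 RPKM in CM WT and 5.62 RPKM in ESC WT. Over the 5 members with at least 1 RPKM in both libraries the median was 0.00, against -0.23 over all such genes. The 14 that had passed through CM WT only had less than 1 RPKM in ESC WT, which fixed their direction.

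Of 68 genes of the actin cytoskeleton, 43 were in the filter, 38 of them above the all-gene median, with 4 higher and none lower by 2-fold or more. Of the 43, 15 had passed through CM WT only, which fixed their direction. Over the 27 with at least 1 RPKM in both libraries the median log2 ratio was 0.11, against -0.23 over all such genes. Vim, the intermediate filament protein of mesenchyme counted with this list, had 6.49 RPKM in CM WT and 0.964 RPKM in ESC WT. Marcks, which binds actin at the membrane, had 6.52 RPKM in CM WT and 1.45 RPKM in ESC WT. Tmsb4x, thymosin beta 4, which holds actin monomers, had 20.4 RPKM in CM WT and 7.01 RPKM in ESC WT. Acta2, smooth muscle actin, had 2.53 RPKM in CM WT and 0.218 RPKM in ESC WT. Diaph1, a formin (overlapping), had 1.31 RPKM in CM WT and 2.84 RPKM in ESC WT. Of 39 microtubule genes, 20 were in the filter, 9 above and 11 below the all-gene median, with none higher and 2 lower by 2-fold or more. Their median was -0.14 over the 16 with at least 1 RPKM in both libraries, against -0.23 over all such genes. Stmn2, a tubulin-binding protein, had 0.485 RPKM in CM WT and 4.36 RPKM in ESC WT, while Tuba1a had 3.49 RPKM in CM WT and 1.41 RPKM in ESC WT.

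Acta2 also had an ATAC-seq interval at its promoter in 3 of 3 CM WT and 0 of 3 ESC WT libraries. Genes of the contractile cytoskeleton are known targets of serum response factor, which binds the CArG box, and the Acta2 promoter is shown for that motif. The bases in capitals are the 2 matches to the CArG box with 1 mismatch allowed among its 6 central bases, at 84 to 75 and 34 to 25 bases before the start (RefSeq, GRCm38.p6, chr19:34255374-34255623, minus strand, read 5′ to 3′).
Acta2: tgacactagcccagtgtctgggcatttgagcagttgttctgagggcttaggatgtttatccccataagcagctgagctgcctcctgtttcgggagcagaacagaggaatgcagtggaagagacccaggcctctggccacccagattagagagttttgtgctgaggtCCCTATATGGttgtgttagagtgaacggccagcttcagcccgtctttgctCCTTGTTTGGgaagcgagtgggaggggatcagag
Searched on both strands over 250 bases before to 50 after the start, this motif was in 30.6% of 36 promoters of the actin list (11 genes). It was in 9.81% of 4139 promoters of genes in the filter. Without a mismatch it was in 13.9% of promoters of the actin list and 1.62% of those in the filter. A match is a description of these letters and not a site of binding.

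Signalling genes had their highest members in the insulin-like growth factor pathway. Igf2, a fetal growth factor expressed from the paternal allele (chromosome 7, 142650768 to 142666816, mm10, overlapping Igf2os and Mir483), was the gene with the highest log2 ratio outside the pluripotency and heart muscle lists. It stood at 32.4 RPKM in CM WT and 0.392 RPKM in ESC WT, a ratio of 82.8 (95% counting interval 71.1 to 96.3). The binding proteins differed among themselves. Igfbp5 had 2.71 RPKM in CM WT and 0.0211 RPKM in ESC WT, and Igfbp4 had 2.94 RPKM in CM WT and 0.136 RPKM in ESC WT, while Igfbp2 had 3.13 RPKM in CM WT and 3.58 RPKM in ESC WT. Dlk1, a paternally expressed membrane protein of the Delta family counted in this list, had 5.84 RPKM in CM WT and 0.102 RPKM in ESC WT. Foxo1, a transcription factor held in check by insulin signalling, had 1.46 RPKM in CM WT and 1.39 RPKM in ESC WT.

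In the TGF-beta pathway the ligand gene Tgfb2 (overlapping) had 1.22 RPKM in CM WT and 0.107 RPKM in ESC WT, and the activin subunit gene Inhbb had 0.0802 RPKM in CM WT and 1.34 RPKM in ESC WT. The mediator Smad3 (overlapping) had 1.35 RPKM in CM WT and 0.276 RPKM in ESC WT. The inhibitor Smad6 had 2.02 RPKM in CM WT and 0.297 RPKM in ESC WT, while the other inhibitor, Smad7 (overlapping), had 2.76 RPKM in CM WT and 4.36 RPKM in ESC WT. In the Hedgehog pathway the receptor gene Ptch1 had 2.92 RPKM in CM WT and 0.937 RPKM in ESC WT, and the co-receptor gene Gas1 had 1.71 RPKM in CM WT and 0.0845 RPKM in ESC WT. In the Notch pathway Rbpj, the DNA-binding mediator, had 1.00 RPKM in CM WT and 4.64 RPKM in ESC WT. Maml3, a co-activator of Notch (overlapping), had 1.58 RPKM in CM WT and 0.0461 RPKM in ESC WT. Of 72 ephrin, semaphorin, netrin and slit genes with their receptors, 19 were in the filter, 8 higher and 1 lower by 2-fold or more. Of the 19, 14 had passed through CM WT only, and of all 734 such genes 162 were at least 2-fold higher. Over the 3 with at least 1 RPKM in both libraries the median log2 ratio was 0.32, against -0.23 over all such genes. Nrp1, a co-receptor of semaphorins and VEGF (overlapping), had 2.62 RPKM in CM WT and 0.0144 RPKM in ESC WT. The ephrin genes Efnb2 and Efna5 (the second overlapping) had 2.44 and 2.54 RPKM in CM WT, against 0.499 and 0.310 RPKM in ESC WT. Ntn1, the guidance protein netrin 1 (overlapping), had 0.746 RPKM in CM WT and 2.91 RPKM in ESC WT, and Epha2, a receptor of ephrins, had 1.33 RPKM in CM WT and 3.35 RPKM in ESC WT. Growth factor ligands were split too. Vegfa had 2.23 RPKM in CM WT and 0.551 RPKM in ESC WT, Vegfc (overlapping) had 0.671 RPKM in CM WT and 2.16 RPKM in ESC WT, and Pdgfc had 0.523 RPKM in CM WT and 1.43 RPKM in ESC WT.

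Lysosomal genes were higher as a broad family. Of 42 genes, 28 were in the filter, 26 had a log2 ratio above 0, all 28 lay above the all-gene median and 5 were at least 2-fold higher. The family did not rest on genes absent from stem cells, since 18 members had at least 1 RPKM in both libraries and their median log2 ratio was 0.38, against -0.23 over all such genes. The cathepsins, lysosomal proteases, led it. Ctsl had 13.5 RPKM in CM WT and 2.47 RPKM in ESC WT, Ctsb (overlapping) had 3.98 RPKM in CM WT and 0.971 RPKM in ESC WT, and Ctsc had 1.35 RPKM in CM WT and 0.114 RPKM in ESC WT. Ctsh had 1.65 RPKM in CM WT and was not listed in ESC WT. Lamp1, a structural protein of the lysosomal membrane, was near level at 5.42 RPKM in CM WT and 5.19 RPKM in ESC WT, and Cd164 had 5.10 RPKM in CM WT and 6.23 RPKM in ESC WT. A list of 25 macrophage genes, written after the values had been seen, moved with this family: it summed to 18.03 RPKM in CM WT and 2.47 RPKM in ESC WT, with 24 of 25 higher in CM WT. Pf4, a chemokine of megakaryocytes and macrophages, had 3.98 RPKM in CM WT and was not listed in ESC WT, and the complement receptor gene C3ar1 had 1.73 RPKM in CM WT and 0.00792 RPKM in ESC WT. In CM KO the same list summed to 2.39 RPKM and in ESC KO to 1.74 RPKM, and the cathepsin levels in CM KO were also below those in CM WT. Ctsl had 8.91 RPKM in CM KO and 2.23 RPKM in ESC KO, and Ctsb had 1.18 RPKM in CM KO and 0.619 RPKM in ESC KO. Ctsc had 0.847 RPKM in CM KO and 0.143 RPKM in ESC KO, and Ctsh had 0.477 RPKM in CM KO and was not listed in ESC KO. The part of macrophage genes in the lysosomal result was not tested.

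Plasma transport proteins made by visceral endoderm and liver had 8 of 32 genes in the filter, all 8 at least 2-fold higher. Of the 8, 7 had passed through CM WT only, and of all 734 such genes 162 were at least 2-fold higher. Apob, the scaffold of lipoprotein particles, had 10.3 RPKM in CM WT and 0.0383 RPKM in ESC WT, a ratio of 269 (95% counting interval 199 to 373). Rbp4, the carrier of retinol in plasma, had 4.49 RPKM in CM WT and 0.0246 RPKM in ESC WT. Ttr, which carries Rbp4 and thyroid hormone (overlapping), Apoa1 and Afp had 1.98, 1.89 and 1.00 RPKM in CM WT and were not listed in ESC WT. Apoe, the member already present in stem cells, had 16.98 RPKM in CM WT and 6.98 RPKM in ESC WT. Over the 23 members listed in CM WT or ESC WT, without the filter, the median log2 ratio was 0.20. The visceral endoderm markers given above overlap this list. Cyp26a1, the enzyme that degrades retinoic acid, had 1.59 RPKM in CM WT and was not listed in ESC WT, and the retinoic acid receptor gene Rarg had 0.464 RPKM in CM WT and 1.57 RPKM in ESC WT. In the general machinery of secretion no gene was at least 2-fold higher, though most lay above the all-gene median of -0.25. The 40 translocon and vesicle coat genes in the filter had a median log2 ratio of -0.08, with 31 above the all-gene median and none at least 2-fold different. The 25 endoplasmic reticulum chaperones had a median of -0.13, with 15 above the all-gene median. Among them, Hspa5 (overlapping) had 24.4 RPKM in CM WT and 37.5 RPKM in ESC WT. Canx had 6.22 RPKM in CM WT and 10.2 RPKM in ESC WT.

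**Figure D3:**
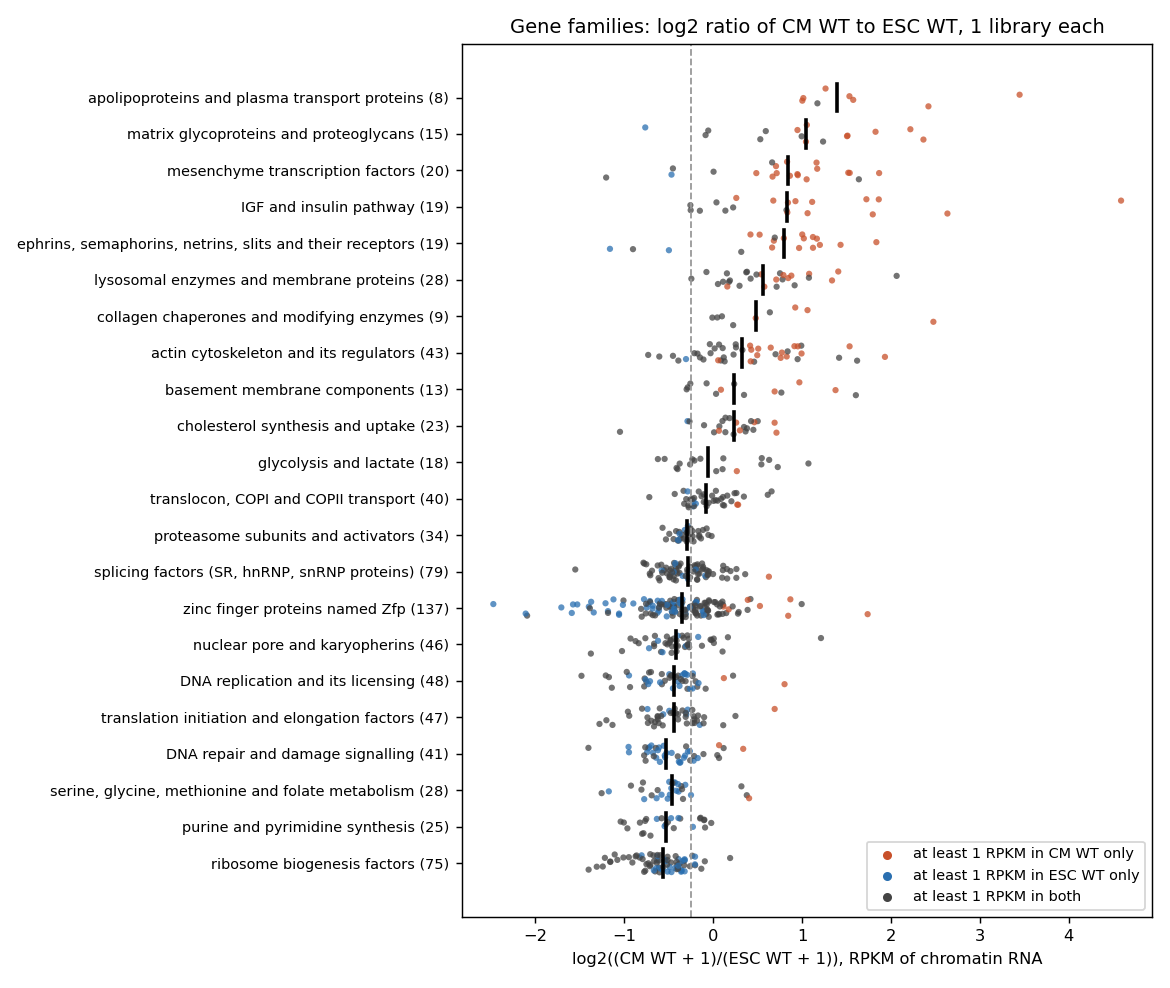
Log2 ratio of CM WT to ESC WT (horizontal, RPKM + 1) for each member of 22 gene families in the filter, with the number of members in brackets; black bars are medians and the dashed line is the median of all 5091 genes, -0.25. Matrix glycoproteins, plasma transport proteins and guidance genes sit right of the line, mostly through genes with at least 1 RPKM in CM WT only, while ribosome biogenesis and nucleotide synthesis sit left of it, mostly through genes with at least 1 RPKM in both.

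Metabolic families lay on both sides. In cholesterol and fatty acid synthesis, 23 of 40 genes were in the filter, 20 of them above the all-gene median, with a median log2 ratio of 0.23. Of the 23, 6 had passed through CM WT only, which fixed their direction. Over the 16 with at least 1 RPKM in both libraries the median was 0.16, against -0.23 over all such genes. Stard4, a cholesterol carrier, had 1.55 RPKM in CM WT and 0.557 RPKM in ESC WT, and the acyl-CoA synthetase gene Acsl3 (overlapping) had 2.32 RPKM in CM WT and 1.35 RPKM in ESC WT. Elovl6, a fatty acid elongase (overlapping), had 1.76 RPKM in CM WT and 4.70 RPKM in ESC WT. In glycolysis, 9 genes were above 0 and 9 below, with a median of -0.06. The lactate transporter gene Slc16a1 had 9.50 RPKM in CM WT and 3.996 RPKM in ESC WT, while Eno1 had 4.44 RPKM in CM WT and 6.95 RPKM in ESC WT and Pkm (overlapping) had 8.996 RPKM in CM WT and 12.2 RPKM in ESC WT.

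Purine and pyrimidine synthesis lay below the all-gene median as a family. Of 34 genes, 25 were in the filter and all 25 had a negative log2 ratio, 18 of them below the all-gene median and 7 above it. Of the 25, 5 had passed through ESC WT only, which fixed their sign. Over the 20 members with at least 1 RPKM in both libraries the median was -0.56, against -0.23 over all such genes. Gart, a purine synthesis enzyme with 3 activities, had 1.24 RPKM in CM WT and 3.50 RPKM in ESC WT. Dut, which removes dUTP, had 1.64 RPKM in CM WT and 4.15 RPKM in ESC WT, and Dtymk, which makes dTDP, had 1.85 RPKM in CM WT and 4.86 RPKM in ESC WT. Gmps (overlapping) was near level, with 1.43 RPKM in CM WT and 1.46 RPKM in ESC WT. In amino acid and folate metabolism, 28 of 44 genes were in the filter with a median of -0.47, 24 of them below the all-gene median. Of the 28, 14 had passed through ESC WT only, which fixed their sign. Over the 13 with at least 1 RPKM in both libraries the median was -0.46. Odc1, the first enzyme of polyamine synthesis (overlapping), had 9.92 RPKM in CM WT and 25.1 RPKM in ESC WT, and Cth, which makes cysteine, had 0.321 RPKM in CM WT and 1.98 RPKM in ESC WT. The arginine and lysine transporter gene Slc7a3 (chromosome X, 101079146 to 101090452, mm10, overlapping Snx12) had 2.45 RPKM in CM WT and 13.4 RPKM in ESC WT, a ratio of 0.183 (95% counting interval 0.170 to 0.197). Slc29a1, a nucleoside transporter, had 0.762 RPKM in CM WT and 5.002 RPKM in ESC WT. The metallothionein genes Mt2 and Mt1, whose products bind zinc and copper, had 3.47 and 4.92 RPKM in CM WT, against 14.1 and 10.1 RPKM in ESC WT. Of the zinc importers, Slc39a14 had 0.975 RPKM in CM WT and 3.14 RPKM in ESC WT, and Slc39a8 (overlapping) had 1.12 RPKM in CM WT and 0.0152 RPKM in ESC WT.

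Ribosome biogenesis factors were lower in CM WT than the bulk of genes, and families of transcription and translation lay below it by less. The family median lay -0.32 from the all-gene median, against -0.19 for translation factors, -0.19 for mitochondrial ribosomal proteins and -0.13 for RNA polymerase subunits. Of 84 ribosome biogenesis factors, 75 were in the filter, 68 below the all-gene median, 9 at least 2-fold lower and none at least 2-fold higher. Over the 51 members with at least 1 RPKM in both libraries the median log2 ratio was -0.64, against -0.23 over all such genes, and over the 83 listed members without the filter it was -0.52, against 0.0006 over all genes. Nop10, a subunit of the particles that make pseudouridine in ribosomal RNA, had 1.80 RPKM in CM WT and 5.93 RPKM in ESC WT. Nop58, a core protein of the methylating particles, had 21.4 RPKM in CM WT and 51.9 RPKM in ESC WT, and holds small nucleolar RNA genes in its introns. Senp3, a nucleolar SUMO protease (overlapping), had 2.51 RPKM in CM WT and 8.26 RPKM in ESC WT. Leaving out overlapping genes the family median was -0.51. Rrp1 (overlapping) was the exception above 0, with 1.53 RPKM in CM WT and 1.22 RPKM in ESC WT. The 24 RNA polymerase I, II and III subunits in the filter had a median of -0.38, but 16 of them had passed through ESC WT only. Over the 8 with at least 1 RPKM in both libraries the median was -0.32, against -0.23 over all such genes. Polr1b, a core subunit of polymerase I, had 1.03 RPKM in CM WT and 2.49 RPKM in ESC WT.

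Translation factors had a median of -0.45 over 47 genes. Over the 40 with at least 1 RPKM in both libraries it was also -0.45, against -0.23 over all such genes. Eif2s2, a subunit of the factor that brings the first tRNA, had 2.51 RPKM in CM WT and 7.52 RPKM in ESC WT, and Pabpc1, the poly(A)-binding protein, had 7.13 RPKM in CM WT and 16.8 RPKM in ESC WT. Eef1a1, the main elongation factor, was near level at 7.15 RPKM in CM WT and 7.75 RPKM in ESC WT, and Eif4g3 (overlapping) had 1.43 RPKM in CM WT and 0.503 RPKM in ESC WT. The 52 mitochondrial ribosomal protein genes had a median of -0.44, 35 of them through ESC WT only, and of -0.49 over the 17 with at least 1 RPKM in both libraries, with Mrpl15 at 1.03 RPKM in CM WT and 3.65 RPKM in ESC WT. Cytosolic and mitochondrial chaperones had a median of -0.60 over 33 genes, 5 of them at least 2-fold lower. Hsp90aa1 had 2.16 RPKM in CM WT and 5.46 RPKM in ESC WT, and Hspd1, the mitochondrial chaperonin (overlapping Hspe1), had 5.59 RPKM in CM WT and 13.2 RPKM in ESC WT. Hspa8, at 939 RPKM in CM WT and 2081 RPKM in ESC WT, contains 3 small nucleolar RNA genes, and its value cannot be assigned to the protein-coding transcript alone. Bag3, a co-chaperone of muscle, had 1.19 RPKM in CM WT and 0.308 RPKM in ESC WT. Splicing factors and proteasome subunits lay at the all-gene level, with medians of -0.29 over 79 genes and -0.30 over 34 genes. Sf3b4, a splicing factor (overlapping), was the only splicing gene at least 2-fold lower, with 4.81 RPKM in CM WT and 16.02 RPKM in ESC WT. In nuclear transport, with a median of -0.41 over 46 genes, the importin gene Ipo7 (overlapping Snora23) had 8.39 RPKM in CM WT and 23.4 RPKM in ESC WT.

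DNA replication genes had a median log2 ratio of -0.44 over 48 genes in the filter, 18 of which had passed through ESC WT only. Over the 28 with at least 1 RPKM in both libraries it was -0.52, against -0.23 over all such genes. Rif1, a regulator of replication timing, had 4.32 RPKM in CM WT and 13.9 RPKM in ESC WT. Dbf4, the activating subunit of the kinase that fires origins, had 1.71 RPKM in CM WT and 4.97 RPKM in ESC WT. The topoisomerase II genes were opposite, with Top2a, the isoform of dividing cells (overlapping), at 5.02 RPKM in CM WT and 12.9 RPKM in ESC WT, and Top2b at 1.36 RPKM in CM WT and 0.352 RPKM in ESC WT. DNA repair genes had a median of -0.53 over 41 genes, but 25 of them had passed through ESC WT only, which fixed their sign. Over the 14 with at least 1 RPKM in both libraries the median was -0.35, against -0.23 over all such genes. Msh6, a mismatch recognition protein (overlapping), had 2.78 RPKM in CM WT and 8.999 RPKM in ESC WT, and Bard1, the partner of BRCA1, had 0.792 RPKM in CM WT and 2.46 RPKM in ESC WT. H1f0, the linker histone of resting and differentiated cells, went the other way, with 4.34 RPKM in CM WT and 0.985 RPKM in ESC WT.

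Chromatin regulators lay near the all-gene median as families, at -0.10 for 42 histone lysine methylases and demethylases and -0.15 for 33 acetylases, deacetylases and bromodomain proteins, with a few members apart. Kat6b, a histone acetylase, had 1.22 RPKM in CM WT and 4.65 RPKM in ESC WT, and Kdm4c, a histone H3K9 demethylase, had 0.918 RPKM in CM WT and 2.96 RPKM in ESC WT. Prdm6, a smooth muscle regulator of the PRDM family, had 2.26 RPKM in CM WT and 0.0128 RPKM in ESC WT. Hells, a helicase needed for DNA methylation, had 2.42 RPKM in CM WT and 7.14 RPKM in ESC WT. Trim28, the co-repressor recruited by KRAB zinc finger proteins (overlapping), had 9.12 RPKM in CM WT and 20.6 RPKM in ESC WT. Adnp, a zinc finger and homeodomain protein, was listed in CM WT alone of the 4 libraries, at 7.11 RPKM, and overlaps Gm20716, so its value is uncertain.

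The Zfp genes, most of which encode zinc finger proteins, had 137 of 397 members in the filter, 19 at least 2-fold lower and 1 at least 2-fold higher. Over all genes in the filter, 4.56% were at least 2-fold lower and 3.56% at least 2-fold higher. Of the 137, 48 had passed through ESC WT only. Over the 82 with at least 1 RPKM in both libraries the median log2 ratio was -0.23, as over all such genes. Many Zfp proteins carry a KRAB domain and silence transposable elements. Of the 19 lower ones, 9 lie on chromosome 4 between 145510759 and 147812229 (mm10), where the 10 Zfp genes that passed the filter all had log2 ratios below 0; 9 of these 10 had passed through ESC WT only, which fixed that direction. Zfp981 (overlapping) had 0.605 RPKM in CM WT and 5.92 RPKM in ESC WT, and Zfp985 had 0.356 RPKM in CM WT and 3.43 RPKM in ESC WT. These neighbours are close paralogs, so reads may have been shared between them and the 9 genes are not independent. Outside the cluster, Zfp57, which protects imprinted methylation and is also on the pluripotency list, had 1.99 RPKM in CM WT and 11.7 RPKM in ESC WT. The higher member was Zfp608 (overlapping), with 2.71 RPKM in CM WT and 0.114 RPKM in ESC WT. Of 46 germ-line genes, 8 were in the filter, all through ESC WT only, which fixed their direction, among them Tex19.1 at 0.265 RPKM in CM WT and 1.81 RPKM in ESC WT.

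Among the 15 genes with the highest log2 ratios outside the pluripotency and heart muscle lists, those not yet described were the embryonic globins and a few others. Hbb-y had 18.2 RPKM in CM WT and 0.0717 RPKM in ESC WT, a ratio of 253 with a 95% counting interval of 83.7 to 1193, from about 3 reads in ESC WT. Hbb-bh1 had 12.5 RPKM in CM WT and 0.0468 RPKM in ESC WT, and Hba-x had 9.94 RPKM in CM WT and was not listed in ESC WT. Peg10, a paternally expressed gene derived from a retrotransposon, had 20.6 RPKM in CM WT and 3.28 RPKM in ESC WT. Ndn, a paternally expressed gene (overlapping), had 4.47 RPKM in CM WT and was not listed in ESC WT, and Amot, a scaffold protein of the Hippo pathway, had 4.92 RPKM in CM WT and 0.0773 RPKM in ESC WT. Among the 15 lowest, Cobl, an actin nucleator (overlapping), had 0.210 RPKM in CM WT and 3.89 RPKM in ESC WT. Jam2, a junction protein (overlapping), had 0.270 RPKM in CM WT and 4.01 RPKM in ESC WT. Olig2, a neural transcription factor (overlapping), was not listed in CM WT and had 2.61 RPKM in ESC WT. Rbmxl2, an RNA-binding protein of the germ line, had 0.670 RPKM in CM WT and 5.25 RPKM in ESC WT, and H2-M5, a gene of the major histocompatibility complex, had 0.286 RPKM in CM WT and 3.47 RPKM in ESC WT. The remaining 3, with ESC WT levels from 3.47 to 4.05 RPKM, were 4930519F16Rik (overlapping), AU018091 and 2410137M14Rik (overlapping).

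The Mettl3 knockout libraries were not used to choose these genes and are given beside them, although a different genotype is no replicate. Over the same 5091 genes the median log2 ratio of CM KO to ESC KO was -0.04, against -0.25 for CM WT to ESC WT. Igf2 had 23.99 RPKM in CM KO and 0.439 RPKM in ESC KO, a log2 ratio of 4.12 against 4.59 in the WT pair. Serpinh1 had 6.67 RPKM in CM KO and 0.702 RPKM in ESC KO, a log2 ratio of 2.17 against 2.48 in the WT pair. Col1a1 (4.34 RPKM in CM KO, 0.174 RPKM in ESC KO) and Postn (1.48 RPKM in CM KO, 0.0226 RPKM in ESC KO) had lower levels in CM KO than in CM WT, as had the fibroblast markers as a whole (8.47 RPKM in CM KO, 0.253 RPKM in ESC KO). Slc7a3 had 2.38 RPKM in CM KO and 9.64 RPKM in ESC KO. Ribosome biogenesis had a median of -0.32 in the KO pair and -0.57 in the WT pair, and lysosomal genes 0.45 in the KO pair and 0.56 in the WT pair. Glycolysis had a median of 0.54 in the KO pair and -0.06 in the WT pair. Each of these medians is to be read against the all-gene median of its own pair, -0.04 for KO and -0.25 for WT. Against it, ribosome biogenesis lay below and lysosomal genes above in both pairs. The medians of the 2 pairs cannot be compared directly without that shift. Among the genes at least 2-fold different between CM WT and ESC WT, Ifitm3, Kpna1 and Mt2 had a log2 ratio of the opposite sign in the KO pair. The cardiomyocyte markers summed to 0.791 RPKM in CM KO and 1.06 RPKM in ESC KO, but the members were split. Tnnt2, Myh6, Actc1, Nkx2-5 and Ryr2 were higher in CM KO than in ESC KO, at low levels such as 0.103 RPKM in CM KO for Tnnt2. Ttn (0.140 RPKM in CM KO, 0.491 RPKM in ESC KO), Actn2 (0.191 RPKM in CM KO, 0.358 RPKM in ESC KO) and Myl7 were lower.

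**Figure D4:**
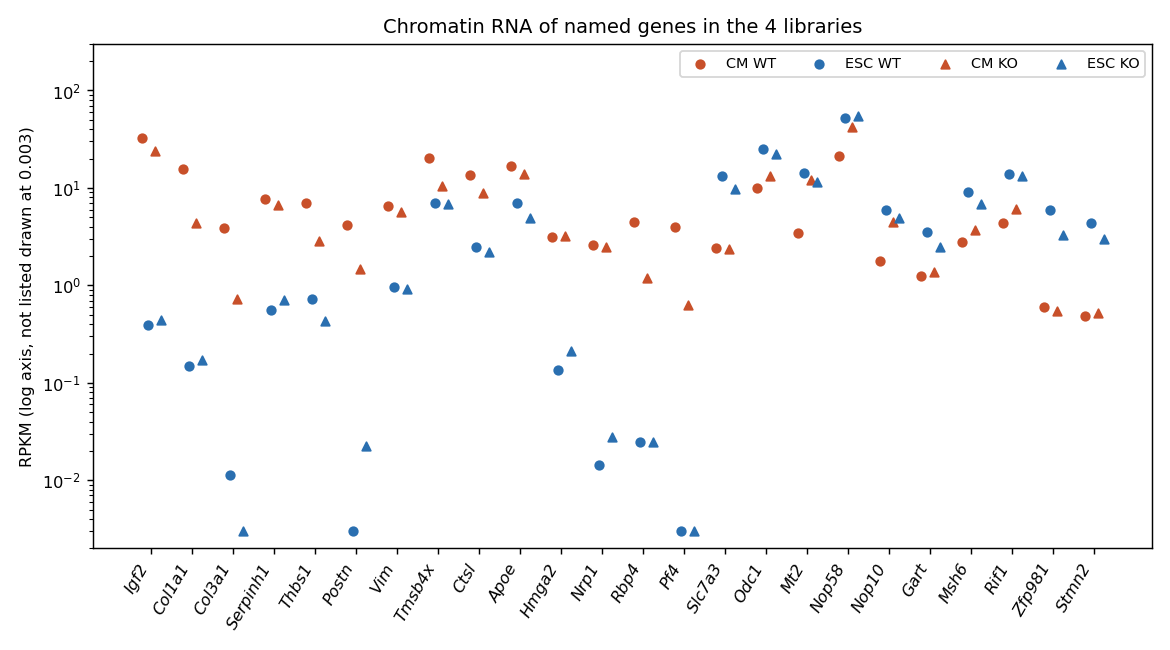
Chromatin RNA level (RPKM, log axis) of 24 named genes in CM WT, ESC WT, CM KO and ESC KO, from left to right within each gene, 1 library per point; genes not listed are drawn at 0.003. From Igf2 to Pf4 both CM libraries lie above both ESC libraries; from Slc7a3 to Stmn2 both CM libraries lie below both ESC libraries, except for Mt2, where CM KO (12.1 RPKM) lies above ESC KO (11.5 RPKM).

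ATAC-seq gives an independent readout of the same genes. A promoter interval was counted where a called interval overlapped the 250 bases before to 50 bases after a RefSeq start by at least 1 bp, for the 4139 of 5091 genes with a promoter sequence. Among 138 higher genes, 87.4% ± 1.11 had an interval in CM WT and 80.7% ± 0.42 in ESC WT (SD, n = 3 each), a difference of 6.76 percentage points (two-sided exact permutation test, p = 0.1, the smallest that 3 against 3 libraries allow). Every CM WT library lay above every ESC WT library. Among 179 lower genes the shares were 91.1% ± 0.56 in CM WT and 92.7% ± 0.56 in ESC WT (SD, n = 3 each), a difference of -1.68 percentage points (exact permutation p = 0.1). Over all 4139 genes the shares were 97.2% ± 0.36 in CM WT and 96.9% ± 0.13 in ESC WT (SD, n = 3 each; exact permutation p = 0.5). Neither difference can pass 0.05 in this design. With intervals of at least 5 on the -log10 q scale only, the difference among higher genes was 3.14 percentage points and the groups were no longer fully apart (exact permutation p = 0.2), and that among lower genes was -3.72 (exact permutation p = 0.1). With a summit required inside the window they were 10.1 (exact permutation p = 0.1) and -1.68 (exact permutation p = 0.2). Of the 138 higher genes, 107 had an interval in all 6 libraries. Each list held between 85443 and 94617 intervals in CM WT and between 107125 and 119307 in ESC WT, so the higher share in CM WT was found in libraries with fewer intervals. Besides Col3a1 and Acta2, the genes with an interval in 3 of 3 CM WT and 0 of 3 ESC WT libraries included Actc1, Flnc, C3ar1 and Ccl3, and those with the reverse included Tdgf1 and Nr5a2. Mpeg1 (1.64 RPKM in CM WT, not listed in ESC WT) had its interval in ESC WT libraries only, and Ifitm3 (4.27 RPKM in CM WT, 10.7 RPKM in ESC WT) in CM WT libraries only, opposite to their RNA. Ooep (0.312 RPKM in CM WT, 2.53 RPKM in ESC WT) and H3c11 (4.63 RPKM in CM WT, 6.35 RPKM in ESC WT) likewise had an interval in 3 of 3 CM WT and 0 of 3 ESC WT libraries. Hbb-y, Hba-x, Afp, Pf4 and Amot had no promoter interval in any of the 6 libraries.

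**Figure D5:**
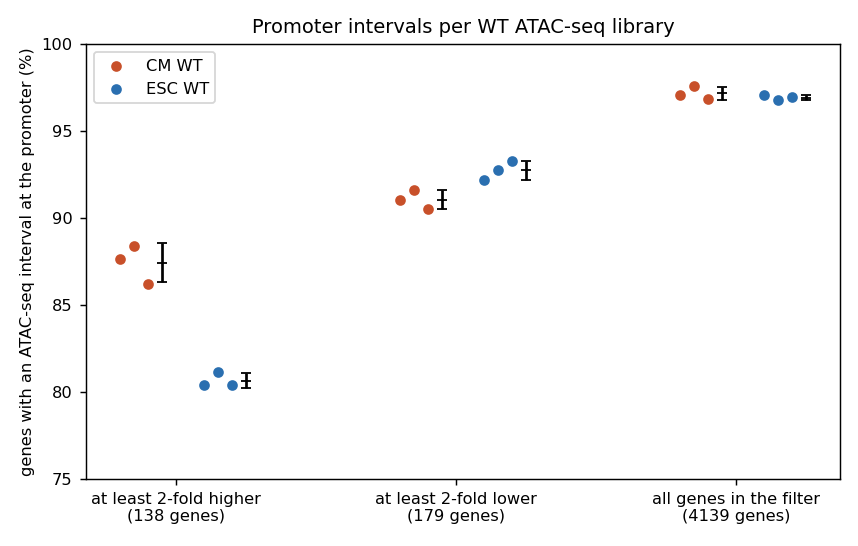
Share of genes (%) with an ATAC-seq interval at the promoter in each of the 3 CM WT (left of each pair) and 3 ESC WT (right) libraries, for the higher genes, the lower genes and all genes in the filter; bars are mean ± SD. The vertical axis starts at 75%. The CM WT libraries lie above the ESC WT libraries for the higher genes and below them for the lower genes.

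Promoters of the higher genes also differed in letters. TATAAA, searched on both strands over the 300-base window, was in 25.4% of 138 promoters of higher genes, 9.50% of 179 promoters of lower genes, 8.87% of 4139 promoters in the filter and 14.8% of 17492 promoters of protein-coding genes. On the gene's own strand with its first base 20 to 40 bases before the start, where a TATA box acts, it was in 8.70% of higher genes (12 genes), 2.79% of lower genes, 1.498% of genes in the filter and 3.06% of all. These shares come with no test. The 60 bases before the start of 6 of those 12 genes, from matrix, plasma transport, growth factor binding, cytoskeletal and globin genes, are shown with TATAAA in capitals (RefSeq, GRCm38.p6; Hba-x chr11:32276540-32276599 plus strand, Rbp4 chr19:38124812-38124871 minus strand, Postn chr3:54361047-54361106 plus strand, Vim chr2:13574251-13574310 plus strand, Igfbp4 chr11:99041184-99041243 plus strand, Adamts1 chr16:85803114-85803173 minus strand).
Hba-x: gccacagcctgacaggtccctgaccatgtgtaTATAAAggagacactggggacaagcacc
Rbp4: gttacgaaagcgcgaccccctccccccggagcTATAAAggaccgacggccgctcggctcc
Postn: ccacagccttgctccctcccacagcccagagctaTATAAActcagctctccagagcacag
Vim: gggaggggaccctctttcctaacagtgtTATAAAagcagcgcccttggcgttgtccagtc
Igfbp4: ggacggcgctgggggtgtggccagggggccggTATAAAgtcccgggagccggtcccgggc
Adamts1: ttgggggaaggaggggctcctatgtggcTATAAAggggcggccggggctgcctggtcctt
The first base of TATAAA lies 28, 28, 26, 32, 28 and 32 bases before the start in these 6 promoters. Rbp4, Vim, Igfbp4 and Adamts1 had an ATAC-seq interval in all 6 libraries, Postn in 2 of 3 CM WT and 0 of 3 ESC WT libraries, and Hba-x in none. CACGTG, the E-box bound by MYC and related factors, was in 22.7% of 66 promoters of ribosome biogenesis factors and 13.3% of promoters in the filter; it was also in 24.3% of 37 promoters of translation factors and 33.3% of 21 promoters of lysosomal genes, which lay on the other side of the all-gene median.

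The Chrm6A-seq files list positions in genes called as m6A, 25753 in CM WT and 17093 in ESC WT, of which 16765 and 13397 lie in the 5091 genes. Some genes higher in CM WT had most of their positions there, with 36 in CM WT and 0 in ESC WT for Apob, 18 in CM WT and 2 in ESC WT for Thbs1, and 49 in CM WT and 2 in ESC WT for Gpc3. Some genes lower in CM WT had fewer there, with 3 in CM WT and 20 in ESC WT for Adam23, 2 in CM WT and 20 in ESC WT for Nop58, 3 in CM WT and 19 in ESC WT for Rbpj and 0 in CM WT and 10 in ESC WT for Hells. Igfbp4 and Rbp4 had none in either library. Ctsh, not listed in ESC WT chromatin RNA, had 1 position there, and Olig2, not listed in CM WT, had 1 there, so a gene that is not listed is not shown to be silent. A position can be called only where reads cover it, and these counts are not corrected for the level of the RNA.

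Gene length and chromosome set the medians apart only a little, and the shares of genes at least 2-fold different by more. In 5 bins of equal gene number by length, the median log2 ratio was -0.28, -0.30, -0.29, -0.26 and -0.11 from the shortest to the longest, the last spanning 61.7 to 1106 kb. Genes at least 2-fold higher were 5.49% of the shortest bin, 1.57% of the next to longest and 4.81% of the longest. Chromosome medians ran from -0.31 on chromosome 16 to -0.18 on chromosome X, leaving out chromosome Y with 3 genes. Leaving it out too, the share at least 2-fold higher ran from 1.27% on chromosome 4 to 6.80% on chromosome X. The share at least 2-fold lower ran from 2.22% on chromosome 8 to 8.16% on chromosome X, which had 147 genes in the filter.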

How the data were processed

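ChrRNA-seq values are RPKM per Ensembl gene, as deposited by the authors. No source used here gives the annotation, the counter or the use of strand. Per the submitters' processing notes the build was mm10 and the tools were HISAT2, Bowtie, MACS2, Picard and cutadapt, without role or version. The ATAC-seq intervals are peaks called per library, deposited by the authors with a display score, a fold enrichment ratio and -log10 p and q values for each. The Chrm6A-seq files, as deposited, list positions in genes with no level.

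Genes not listed in a file were taken as 0. Of the gene IDs, 99.5% matched a symbol and 90.0% a RefSeq (GRCm38.p6) gene, which gave coordinates, overlaps and promoters. Reads behind an RPKM were estimated from the spacing of low values over the whole gene span; at the estimated depths 55.8% (CM WT) and 56.6% (ESC WT) of 2730 and 2756 low genes came out whole within 0.05 reads, so depths are approximate. Ratio intervals are exact (Clopper-Pearson, 95%) on those reads and cover counting error only. With 1 ChrRNA-seq library per group no test was made; ATAC-seq shares were compared by a two-sided exact permutation test over 3 against 3 libraries, which the labels do not tie to separate cultures, so p measures only the spread between them. Only the fold calculation was tested on simulated counts, with a far smaller pseudocount than that of the results. The filter, gene lists, overlaps, ATAC-seq shares and motif search were not tested that way.

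The members and gene lists were chosen with earlier results of these data known. After values were seen, 15 genes were removed from lists that a name pattern or an error had put them in, and the macrophage list was added. Genes were named as the 15 highest and 15 lowest log2 ratios outside the pluripotency and heart muscle lists, and up to 4 at each end of each list. Alternatives were another pseudocount, other filters, scaled libraries, genes listed in both files and genes without overlap. Python 3.11.15, numpy 2.4.6, pandas 2.3.3 and scipy 1.17.1 were used. KO ATAC-seq and Chrm6A-seq libraries were not used here. Single values of a few genes are not reported here; the counts and medians include them.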

Additional observations from a re-analysis of the deposited data

Results flagged for a closer look

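Among the genes at least 2-fold different between CM WT and ESC WT, Kpna1, Ifitm3 and Mt2 had a log2 ratio of the opposite sign between CM KO and ESC KO. Each comparison has 1 library per group, and the difference between the WT and KO comparisons was not tested. Kpna1, an importin alpha that overlaps Gm15564, had 20.4 RPKM in CM WT and 8.25 RPKM in ESC WT (log2 ratio 1.21), and 14.2 RPKM in CM KO and 16.3 RPKM in ESC KO (log2 ratio -0.18). Ifitm3, an interferon-induced membrane protein, had 4.27 RPKM in CM WT and 10.7 RPKM in ESC WT (log2 ratio -1.15), and 5.46 RPKM in CM KO and 4.69 RPKM in ESC KO (log2 ratio 0.18). Mt2, a metallothionein, had 3.47 RPKM in CM WT and 14.1 RPKM in ESC WT (log2 ratio -1.76), and 12.1 RPKM in CM KO and 11.5 RPKM in ESC KO (log2 ratio 0.0754). Ifitm3 was chosen after its values were seen.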

How the results depend on the processing

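The counts of genes at least 2-fold different depended on the scale and the filter. Against 181 higher and 232 lower genes, a pseudocount of 0.1 RPKM gave 430 higher and 787 lower, a mean of both libraries of at least 1 RPKM gave 106 higher, scaled libraries gave 114 lower, and genes that overlap no other gene gave 117 higher and 125 lower. Genes with at least 1 RPKM in both libraries, an alternative chosen after seeing the data, gave 19 higher and 122 lower; fewer genes enter these last 2 settings by construction, and otherwise the cause was not tested. Of 51 lists with a median, 26 lay at least 0.25 from the all-gene median, 21 above and 5 below, and none turned to the other side under an alternative that gave it a median. All 26 had one except under the mean filter and without overlapping genes (25 each) and with at least 1 RPKM in both libraries (18), where too few members were left. The distances themselves were less stable. They moved by more than 0.25 in 20 of 51 lists with the smaller pseudocount and in 23 of 51 without the filter. Such moves were 4 of 50 under the mean filter, 7 of 50 without overlapping genes and 7 of 43 with at least 1 RPKM in both libraries. With genes listed in both files 1 list moved, and with scaled libraries 0. Of the 420 named genes, none with a log2 ratio of at least 1 in either direction changed sign with the smaller pseudocount or the scaled libraries.

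The ATAC-seq difference among higher genes ranged from 6.28 to 7.37 percentage points when each library was left out in turn, and that among lower genes from -1.96 to -1.40. Whether same-numbered libraries were paired was not settled. Deviations of same-numbered libraries correlated at -0.11, -0.07 and 0.07. Few promoters enter such a correlation, since 3958 of 4139 had an interval in all 6 libraries, so low values cannot show that pairing was absent. With the replicate block the differences stayed at 6.76 and -1.68 (exact permutation p = 0.25 for each, the smallest that 3 pairs allow). With 1 ChrRNA-seq library per group, culture-to-culture variation is not measured, and genes with a few estimated reads in 1 library have wide ratio intervals.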
